A study of Rattus norvegicus with 4 samples.

Results

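The 10 genes described here encode insulin-like growth factors (Igf1 and Igf2), their receptors (Igf1r and Igf2r) and binding proteins (Igfbp2, Igfbp3, Igfbp4, Igfbp5, Igfbp6 and Igfbp7), measured in visceral adipose tissue of the rat. They were chosen by symbol, as every probe set that the array's annotation pairs with 1 of these symbols alone. All 10 genes had a probe set, 19 of 15866 probe sets in all, and they are 10 of the 10411 genes with a symbol of their own. Of the 19 probe sets, 16 were bright enough to be tested, at least 1 for every gene. Where a gene had several, the one with the highest mean signal over the 4 arrays stands for the gene and is called its main probe set.

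The study set obese against control male Wistar rats aged 130 days, with 2 obese and 2 control samples and 1 single-colour array for each. The labels name no mutation, diet or treatment, and leave unsaid what made the rats obese and whether RNA was pooled. All 4 samples share the strain, the sex, the age and the tissue. Nothing in the labels says that the samples came from separate animals, so the p-values reflect the spread among these 4 samples alone, and that spread may be technical.

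Insulin-like growth factors are small secreted proteins that resemble proinsulin. They act through the Igf1 receptor, a tyrosine kinase related to the insulin receptor, to promote growth, survival and the differentiation of precursor cells into adipocytes. The Igf2 receptor carries Igf2 to lysosomes for breakdown, and it is also the mannose 6-phosphate receptor that sorts lysosomal enzymes. Binding proteins hold the growth factors in the extracellular fluid, and proteases that cut the binding proteins release them. Fat is a known source of Igf1 and of several binding proteins, made by adipocytes, by stromal cells and by macrophages. In bulk tissue, fewer cells of a type and less RNA per cell cannot be told apart.

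Signals are the authors' deposited intensities on a linear scale. Values at or under 20.8, the 20th percentile over all arrays, were raised to that floor before log2 was taken. The median signal per array was 81.9 and 74.9 in obese tissue, against 82.9 and 82.6 in control tissue. All 7 matched adipocyte markers, among them Fabp4, Lpl and Plin1, lay above the floor on every array, and their summed signal was 13470.4 and 16242.2 in obese tissue, against 13846.2 and 13347.6 in control tissue. The 2 obese arrays stood apart from each other. Of 7 matched markers of mesothelium and epithelium, obese replicate 1 had the highest signal for 7, against 22.7% of all tested probe sets. For 6 of the 7 markers obese replicate 2 had the lowest, an order found in 10.5% of all tested probe sets. Both orders were taken from signals before the floor was applied. The summed signal of that list was 1901.2 and 382.1 in obese tissue, against 814.6 and 971.8 in control tissue. The epithelial cadherin Cdh1 gave 74.0 on obese replicate 1, with 2.1 on obese replicate 2 and 2.1 and 2.4 in control tissue. Wt1, a mesothelial marker, gave 252.7 and 86.7 in obese tissue, against 191.1 and 186.6 in control tissue. Each of the 10 genes is therefore also given without obese replicate 1, as are the medians and named genes of the pathway lists, whose gene values without it were added after the data were seen. The named pathway genes were not refitted without obese replicate 2. Markers of macrophages were lower in obese tissue for 10 of 10, where 57.5% of all tested probe sets were lower. The groups were separate for 8 of the 10, where 24.4% of all tested probe sets were separate and lower. Their summed signal was 4836.2 and 5229.2 in obese tissue, against 7445.7 and 8635.4 in control tissue.

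The comparison asked whether genes of this growth factor system differ between obese and control visceral fat. In limma's moderated test, with p-values adjusted by Benjamini-Hochberg across the 12929 tested probe sets, 0 of the 16 probe sets of the family passed an adjusted p of 0.05, where 0% of all tested probe sets passed. At an unadjusted p under 0.05 there were 3, in Igf2r, Igfbp4 and Igfbp5, where 8.3% of all tested probe sets had such a p. The main probe sets of 3 genes, Igf2, Igfbp4 and Igfbp5, were higher on both obese arrays than on either control array, and those of 2, Igf2r and Igfbp3, were lower on both. Among all tested probe sets the groups did not overlap for 40%, 15.6% higher and 24.4% lower in obese tissue, so the 5 of 10 genes with separate groups are near the background. With each array centred on its median these shares were 21.8% and 16.9%, Igfbp6 joined the genes above, and Igf2r and Igfbp3 overlapped. No probe set of the family had separate groups at least 2-fold apart, a class that held 1.14% of those tested, 0.41% above and 0.727% below control tissue.

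**Figure D1:**
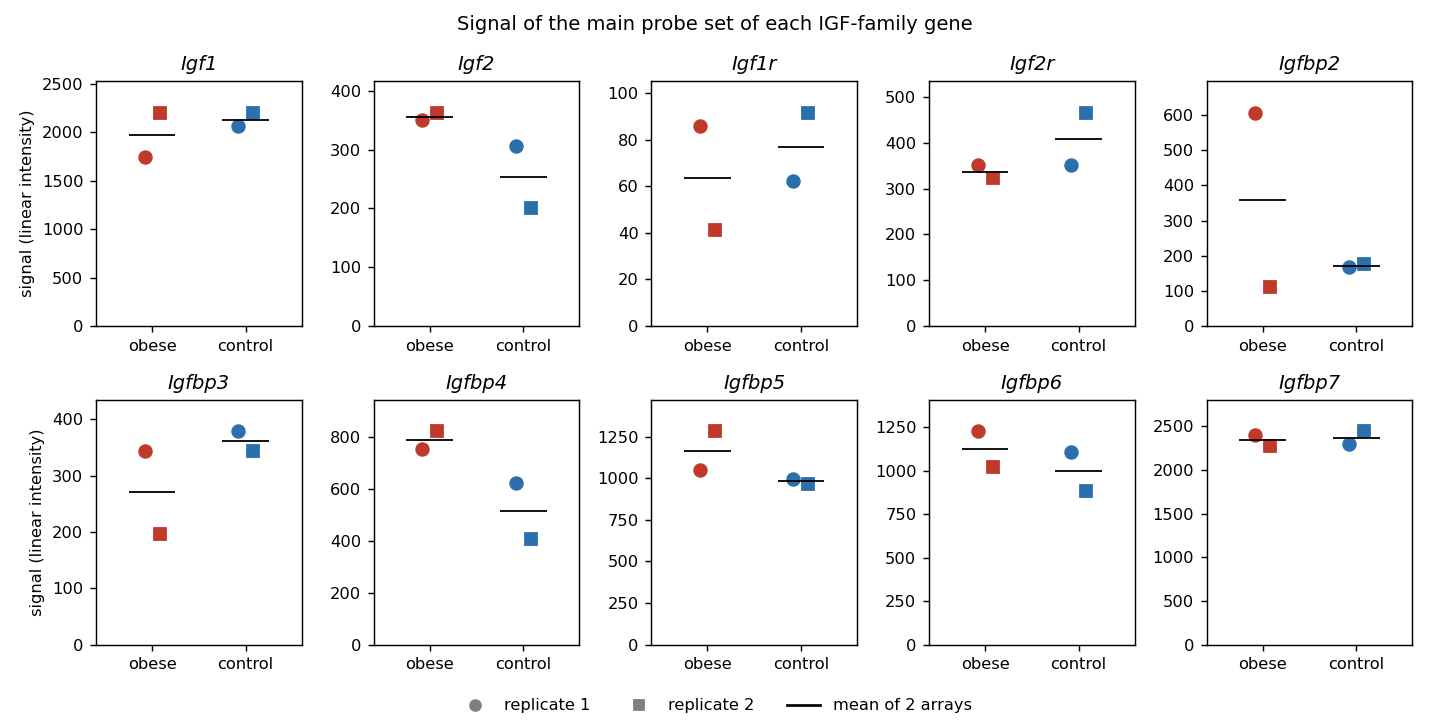
Signal of the main probe set (linear intensity, vertical axis from 0, each panel on its own scale) of the 10 genes on the 2 obese and 2 control arrays, with circles for replicate 1, squares for replicate 2 and lines for the mean of 2 arrays. The obese points lie above the control points for Igf2, Igfbp4 and Igfbp5, and Igfbp2 shows 1 obese array at 606.0 and the other at 111.7.

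Among the growth factors, Igf2, the fetal growth factor that is expressed from the paternal allele, gave signals of 350.0 and 362.3 in obese tissue, against 307.0 and 201.4 in control tissue. Both obese arrays were higher than either control array, and the obese arrays lay close together while the control arrays did not. The log2 difference was 0.52 ± 0.22 (SE), with a 95% interval of -0.012 to 1.05 (limma, adjusted p = 0.615). Without control replicate 2 it was 0.21, and without obese replicate 1 it was 0.54. The other 3 probe sets of Igf2 gave signals between 1.3 and 4.3 on all arrays, under the floor, and were not tested.

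Igf1, the growth factor induced by growth hormone, had signals of 1741.8 and 2195.9 in obese tissue, against 2062.8 and 2200.7 in control tissue. Obese replicate 2 was level with control replicate 2, and obese replicate 1 was the lowest of the 4. The groups overlapped, with a log2 difference of -0.12 ± 0.17 and a 95% interval of -0.54 to 0.29 (limma, adjusted p = 0.883). Without obese replicate 1 the difference was 0.044. The second probe set of Igf1 gave 1362.1 and 1661.6 in obese tissue, against 1730.2 and 2003.2 in control tissue, so here the groups were separate. Its log2 difference was -0.31 ± 0.17 (limma, adjusted p = 0.682). Macrophages are among the cells that make Igf1, and the part of their lower markers in these Igf1 values was not tested.

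The receptor Igf1r had signals of 85.9 and 41.0 in obese tissue, against 62.1 and 91.4 in control tissue. The groups overlapped, and the lowest value was that of obese replicate 2. Its log2 difference was -0.34 ± 0.39, with a 95% interval of -1.32 to 0.63 (limma, adjusted p = 0.855). A higher floor, at the 40th percentile, gave -0.14. The log2 gap between the 2 obese arrays was 1.07, and 2.32% of tested probe sets had a wider one. The difference was -0.88 without obese replicate 1 and 0.19 without obese replicate 2.

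For Igf2r, the receptor that clears Igf2, the main probe set gave 350.7 and 323.8 in obese tissue, against 352.0 and 465.0 in control tissue. The obese values were lower, but obese replicate 1 and control replicate 1 were all but level. The log2 difference was -0.26 ± 0.17 (limma, adjusted p = 0.728). Leaving out control replicate 2 gave -0.063, and leaving out obese replicate 1 gave -0.32. A second probe set, which the annotation gives the same accession, had 267.1 and 321.9 in obese tissue, against 360.3 and 442.4 in control tissue. There the difference was -0.45 ± 0.17 with a 95% interval of -0.86 to -0.035, an unadjusted p of 0.0379 and an adjusted p of 0.574 in limma.

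**Figure D2:**
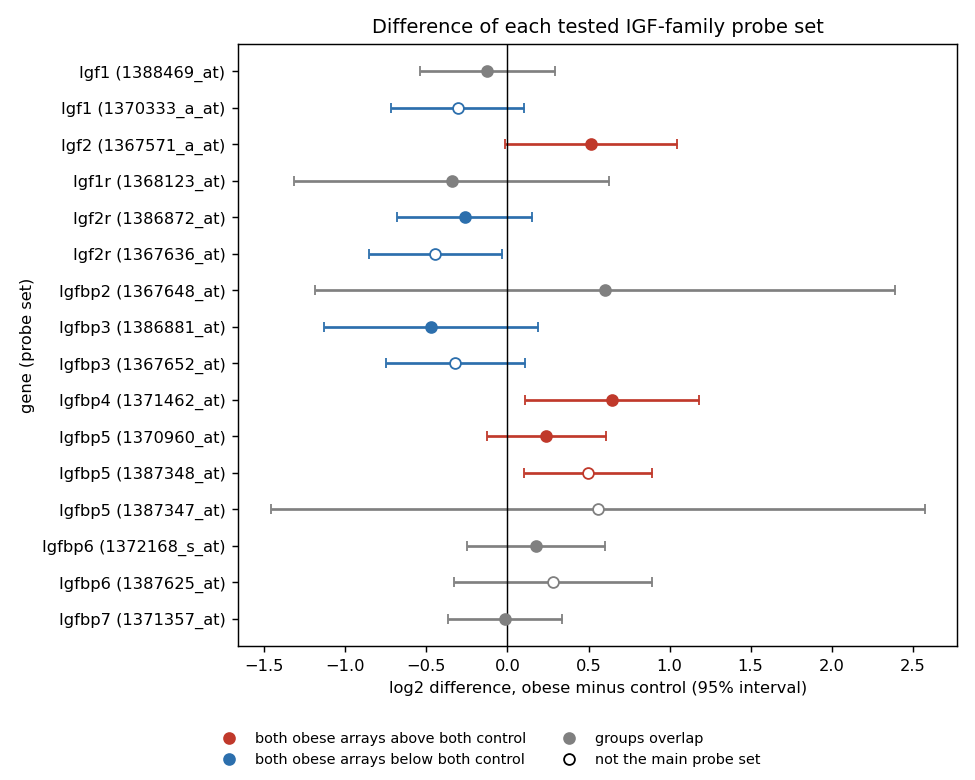
Log2 difference of obese minus control signal (horizontal axis) with its 95% interval from limma for the 16 tested probe sets of the family. Red marks probe sets with both obese arrays above both control arrays, blue the opposite, grey an overlap, and open points are not the main probe set of their gene. The intervals of Igfbp4 (0.11 to 1.18), of 1 Igfbp5 probe set (0.10 to 0.89) and of 1 Igf2r probe set (-0.86 to -0.035) lie to one side of 0.

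Igfbp4, a binding protein that inhibits growth factor action and is cut by the protease Pappa, had signals of 755.7 and 823.1 in obese tissue, against 623.2 and 406.9 in control tissue. Both obese arrays were above both control arrays. The log2 difference of 0.65 ± 0.22 was the largest among the 10 main probe sets, with a 95% interval of 0.11 to 1.18 (limma, unadjusted p = 0.0257, adjusted p = 0.546). A larger absolute difference was found in 4.56% of all tested probe sets. Without control replicate 2, the array with the lowest signal, the difference was 0.34, and without obese replicate 1 it was 0.71.

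Igfbp5, which binds to extracellular matrix, gave 1048.2 and 1281.0 in obese tissue with its main probe set, against 998.1 and 966.3 in control tissue. The groups were separate and obese replicate 1 was near the control arrays. The log2 difference was 0.24 ± 0.15 (limma, adjusted p = 0.717), 0.38 without obese replicate 1 and 0.094 without obese replicate 2. A second probe set gave 391.5 and 358.8 in obese tissue, against 235.4 and 299.6 in control tissue. Its difference was 0.50 ± 0.16, with an unadjusted p of 0.0223 and an adjusted p of 0.525 in limma. The third ranged widely within both groups, with 35.1 and 115.5 in obese tissue, against 90.1 and 8.5 in control tissue, and its groups overlapped. It shares its accession with the second, and 1 control value was under the floor, so its difference of 0.56 ± 0.82 depends on the floor.

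Igfbp3, the main carrier of the growth factors in blood, had 343.7 and 196.3 in obese tissue, against 378.2 and 344.0 in control tissue. Obese replicate 1 was level with control replicate 2, and obese replicate 2 was the lowest. The log2 difference was -0.47 ± 0.27 (limma, adjusted p = 0.694), with a 95% interval of -1.13 to 0.19. It was -0.88 without obese replicate 1 and -0.070 without obese replicate 2. The second probe set, of the same accession, gave 312.0 and 244.3 in obese tissue, against 376.4 and 316.7 in control tissue, a difference of -0.32 ± 0.17 (limma, adjusted p = 0.680).

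Igfbp6, which prefers Igf2 over Igf1, gave 1225.8 and 1020.8 in obese tissue, against 1109.5 and 884.8 in control tissue. In both groups replicate 1 was the higher, and the groups overlapped. The log2 difference was 0.18 ± 0.17 (limma, adjusted p = 0.825), 0.043 without obese replicate 1 and 0.012 without control replicate 2. The second probe set had the same order, with 1326.6 and 927.8 in obese tissue, against 1097.2 and 761.4 in control tissue.

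Igfbp7, a related protein with low affinity for the growth factors that vascular cells secrete, had 2404.7 and 2275.8 in obese tissue, against 2292.6 and 2439.6 in control tissue. The values overlapped and were alike on all 4 arrays. The log2 difference of -0.016 ± 0.14 had a 95% interval of -0.37 to 0.34 (limma, adjusted p = 0.985), and 94.7% of tested probe sets had a larger absolute difference. Its sign turned with median centring (0.064), and without obese replicate 1 it was -0.055.

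Igfbp2, a binding protein that adipocyte precursors secrete, varied most. Its signals were 606.0 and 111.7 in obese tissue, against 167.8 and 175.0 in control tissue. Obese replicate 1 was the highest of the 4 and obese replicate 2 the lowest, while the control arrays were almost equal. The log2 gap between the obese arrays was 2.44, and only 24 of 12929 tested probe sets, 0.186%, had a wider one. The gap between the control arrays was 0.061. The log2 difference of 0.60 ± 0.73 had a 95% interval of -1.19 to 2.39 (limma, adjusted p = 0.866). It was 1.82 without obese replicate 2 and -0.62 without obese replicate 1, so the array left out sets its sign.

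The same order of arrays, obese replicate 1 highest and obese replicate 2 lowest, was found in 10.5% of all tested probe sets. It was seen for 6 of 7 markers of mesothelium and epithelium and for 5 of 9 of smooth muscle and pericytes. Among the 10 main probe sets of the family, Igfbp2 alone had it, a share of 10% that is near the background. The epithelial adhesion gene Epcam had 198.2 and 13.8 in obese tissue, and control replicate 1 had 25.4 while control replicate 2 was under the floor. Keratin 19, Krt19, had 405.4 and 47.8 in obese tissue, against 114.7 and 118.5 in control tissue. The smooth muscle actin gene Actg2 had 675.1 and 77.4 in obese tissue, against 82.9 and 91.5 in control tissue. The summed smooth muscle and pericyte signal was 6086.4 and 3551.0 in obese tissue, against 3320.8 and 3390.1 in control tissue. The part of these markers in the Igfbp2 values was not tested.

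**Figure D3:**
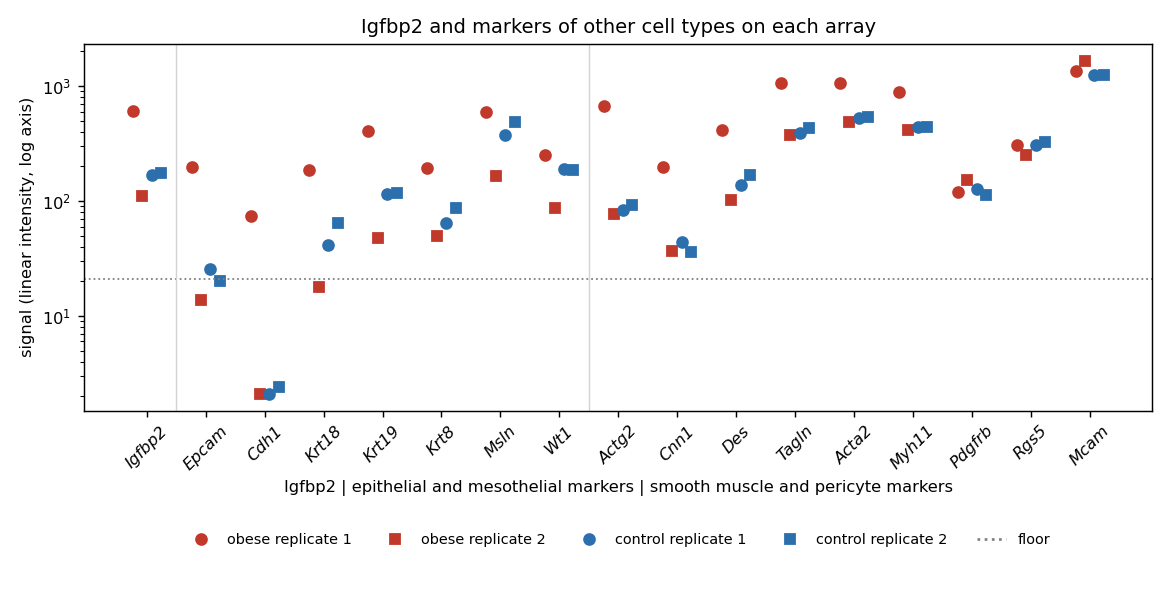
Signal (linear intensity on a log axis) of Igfbp2, of 7 matched epithelial and mesothelial markers and of 9 smooth muscle and pericyte markers on the 4 arrays, with red for obese, blue for control, circles for replicate 1, squares for replicate 2 and a dotted line at the floor of 20.8. The red circle of obese replicate 1 lies highest for Igfbp2, for 7 of 7 epithelial and mesothelial markers and for 6 of 9 smooth muscle and pericyte markers, the exceptions being Pdgfrb, Rgs5 and Mcam.

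Igfbp2 and Igfbp5 are neighbouring genes on chromosome 9 of the rat assembly GRCr8, and Igfbp1 and Igfbp3 on chromosome 14. The main probe set of Igfbp5 was highest on obese replicate 2, where Igfbp2 was lowest, while the second probe set of Igfbp5 was highest on obese replicate 1, as Igfbp2 was. Igfbp1, a liver product regulated by insulin and named here after its values were seen, gave 26.7 and 22.0 in obese tissue. Control tissue had 11.7 and 18.4, under the floor on both arrays. The log2 difference of Igfbp1, 0.22 ± 0.20 (limma, adjusted p = 0.803), depends on the floor. The filter fixed its direction, since only the obese values were above the floor.

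The promoters of the 3 genes whose main probe sets were higher on both obese arrays are shown, to let their start regions be compared. RefSeq's table for GRCr8 holds a window of 250 bases before and 50 after the start for all 10 genes, with 2 windows for Igf2. The 250 bases before the start are printed 5′ to 3′ on the gene's strand, for Igf2 those of the window that has a match there. Capitals mark matches to GGGCGG (the GC box that Sp1 binds), TATAAA or CCAAT, searched on both strands.
Igf2, minus strand, chr1:207250476-207250725: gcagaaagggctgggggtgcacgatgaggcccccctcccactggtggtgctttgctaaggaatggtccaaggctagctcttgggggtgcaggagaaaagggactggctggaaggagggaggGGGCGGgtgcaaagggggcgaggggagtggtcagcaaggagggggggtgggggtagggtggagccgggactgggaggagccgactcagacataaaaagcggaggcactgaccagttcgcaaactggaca
Igfbp4, plus strand, chr10:84491221-84491470: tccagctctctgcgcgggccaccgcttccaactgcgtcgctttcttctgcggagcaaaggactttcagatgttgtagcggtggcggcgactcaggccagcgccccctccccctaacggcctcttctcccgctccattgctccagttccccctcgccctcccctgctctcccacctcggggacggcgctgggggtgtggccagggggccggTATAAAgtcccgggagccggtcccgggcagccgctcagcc
Igfbp5, minus strand, chr9:81914188-81914437: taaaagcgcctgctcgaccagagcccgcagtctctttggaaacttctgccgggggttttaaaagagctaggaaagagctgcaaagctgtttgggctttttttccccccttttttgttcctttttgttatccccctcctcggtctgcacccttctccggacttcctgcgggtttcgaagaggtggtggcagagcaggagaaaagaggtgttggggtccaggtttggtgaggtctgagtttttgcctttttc
The GGGCGG match of Igf2 begins 129 bases before the start and the TATAAA match of Igfbp4 40 bases before it, and the window of Igfbp5 held none of the 3. The other Igf2 window has 1 match to GGGCGG, after the start. GGGCGG was in windows of 5 of the 10 genes, namely Igf2, Igf1r, Igf2r, Igfbp2 and Igfbp7. It was in 33.1% of all 33469 windows, a share of windows and not of genes, and Igf2 had 2 windows that could match. TATAAA was in that of Igfbp4 alone, against 14.2% of all windows. CCAAT was in 0 of the 11 windows of the family, against 37.5% of all. The 3 printed genes shared none of these matches. They were picked by their values here, in a class near the background, and common regulation was not tested. GC content was 60.7% for the printed Igf2 window, 71.0% for Igfbp4 and 50.7% for Igfbp5.

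Other genes of the pathway were set in 5 lists, described by counts and medians beside the median of -0.044 over all tested probe sets. Of all tested probe sets 42.5% were higher and 57.5% lower in obese tissue. None of their genes passed over all probe sets (limma). Growth hormone signalling, which induces Igf1, had 7 tested genes, 4 higher and 3 lower in obese tissue, with a median log2 difference of 0.045. The receptor Ghr had 468.8 and 979.6 in obese tissue, against 591.0 and 452.8 in control tissue, a difference of 0.39 ± 0.35. Its groups overlapped, since obese replicate 1 lay between the control arrays. Stat5b, a transcription factor that the receptor activates, had 87.7 and 85.1 in obese tissue, against 69.0 and 57.6 in control tissue. Its difference was 0.45 ± 0.19 (limma, adjusted p = 0.615), while the closely related Stat5a differed by -0.24 ± 0.14 and the kinase Jak2 by -0.32 ± 0.18, and for these 3 of the 7 genes the groups were separate, where 40% of all tested probe sets were. A second probe set of Ghr differed by -0.032. The 2 stanniocalcins, secreted proteins that inhibit the proteases Pappa and Pappa2, were both higher on both obese arrays, where 15.6% of all tested probe sets were. Stc1 had 124.6 and 86.9 in obese tissue, against 73.6 and 67.2 in control tissue, a difference of 0.57 ± 0.23 (limma, adjusted p = 0.601). Stc2 had 26.2 and 59.8 in obese tissue, against 19.3 and 22.9 in control tissue, a difference of 0.86 ± 0.40 that depends on the floor (limma, adjusted p = 0.631). Pappa2 differed by -0.045 ± 0.23, and by 0.39 with its other tested probe set. The proteases Pappa, Adam12 and Adam28 had no probe set with their symbol alone, so they were not measured here. Adam9 differed by -0.24 ± 0.15 and was lower on both obese arrays, and of the 5 tested genes of proteases and partners 3 were higher and 2 lower, with a median of 0.095. Igfals, the liver-made subunit of the ternary complex, was named after its values were seen and lay between 1.9 and 2.2 on all arrays, under the floor.

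Receptor signalling had 15 tested genes, 4 higher and 11 lower, with a median of -0.19, where 57.5% of all tested probe sets were lower. The groups were separate for 6 of them, all lower in obese tissue, where 24.4% of all tested probe sets were. The insulin receptor substrate Irs1 had 34.4 and 30.2 in obese tissue, against 46.1 and 50.9 in control tissue, a difference of -0.59 ± 0.20 (limma, unadjusted p = 0.0253, adjusted p = 0.544). Irs3, the substrate of rodent fat, had 192.2 and 267.8 in obese tissue, against 169.1 and 200.6 in control tissue, and the groups overlapped. The kinase subunit gene Pik3r1 had 41.8 and 19.7 in obese tissue, against 39.3 and 70.7 in control tissue, and its difference of -0.84 ± 0.43 depends on the floor. The adaptor Grb14 differed by 0.22 ± 0.28.

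On chromosome 1, H19, the imprinted noncoding RNA expressed from the maternal allele, lies near Igf2, with 1 other annotated gene between them in GRCr8. H19 had 44.3 and 66.2 in obese tissue, against 84.5 and 84.9 in control tissue, so it was lower on both obese arrays where Igf2 was higher. Its difference was -0.65 ± 0.25 (limma, unadjusted p = 0.0400, adjusted p = 0.579). Th, tyrosine hydroxylase, and Ins1, an insulin gene, differed by -0.42 ± 0.28 and -0.13 ± 0.18. The 3 tested genes of this list, all lower where 57.5% of all tested probe sets were, had a median of -0.42. Ins2, another insulin gene of the list, had 17.7 and 24.4 in obese tissue, against 15.3 and 11.7 in control tissue. It was not tested, since 1 array alone was above the floor. Igf2bp1, Igf2bp2 and Igf2bp3 had no probe set with their symbol alone. Only H19 was placed near Igf2 here, and the distance of Th and Ins1 from Igf2 was not examined.

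Related cysteine-rich proteins had 8 tested genes, 6 higher and 2 lower in obese tissue, with a median of 0.30. The groups were separate for 4 of them, all higher in obese tissue, where 15.6% of all tested probe sets were. Igfbp1 is among the 4, and the filter fixed its direction, since only its obese values were above the floor. Esm1, an endothelial proteoglycan with a domain like those of binding proteins, had 53.0 and 35.8 in obese tissue, against 17.6 and 22.7 in control tissue. Its difference of 1.00 ± 0.25 depends on the floor (limma, adjusted p = 0.467), and it was the only gene of the 5 lists with separate groups at least 2-fold apart. Ccn2, connective tissue growth factor, had 825.8 and 522.6 in obese tissue, against 341.0 and 412.2 in control tissue, a difference of 0.81 ± 0.24 (limma, adjusted p = 0.512). Ccn1, a matrix protein of the same family, was named after its values were seen. It had 175.9 and 197.2 in obese tissue, against 101.8 and 117.1 in control tissue, a difference of 0.77 ± 0.16 with the smallest adjusted p of the 5 lists (limma, 0.402). Kazald1 differed by -0.20 ± 0.24. Ccn4 differed by -0.13 ± 0.24, a size that depends on the floor, since obese replicate 1 had 10.1. Without obese replicate 1 the list medians were -0.23 for growth hormone signalling, 0.16 for proteases and partners, -0.26 for receptor signalling, -0.36 for the Igf2 locus and 0.15 for related cysteine-rich proteins. Among the genes named from the lists, leaving out that array gave log2 differences of 0.92 for Ghr, 0.43 for Stat5b, -0.23 for Stat5a and -0.39 for Jak2. It gave 0.31 for Stc1, 1.45 for Stc2, -0.25 for Pappa2 and -0.21 for Adam9. For the signalling genes it gave -0.68 for Irs1, 0.54 for Irs3, -1.34 for Pik3r1 and -0.011 for Grb14. H19 gave -0.36, Th -0.70 and Ins1 -0.17. Ccn1 gave 0.85, Ccn2 0.48, Esm1 0.72, Kazald1 -0.45, Ccn4 0.0094 and Igfbp1, with its control values at the floor, 0.081. Of these 21 genes, Grb14 and Ccn4 turned direction. Turns without obese replicate 2 are not counted, since these genes were not refitted without that array.

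**Figure D4:**
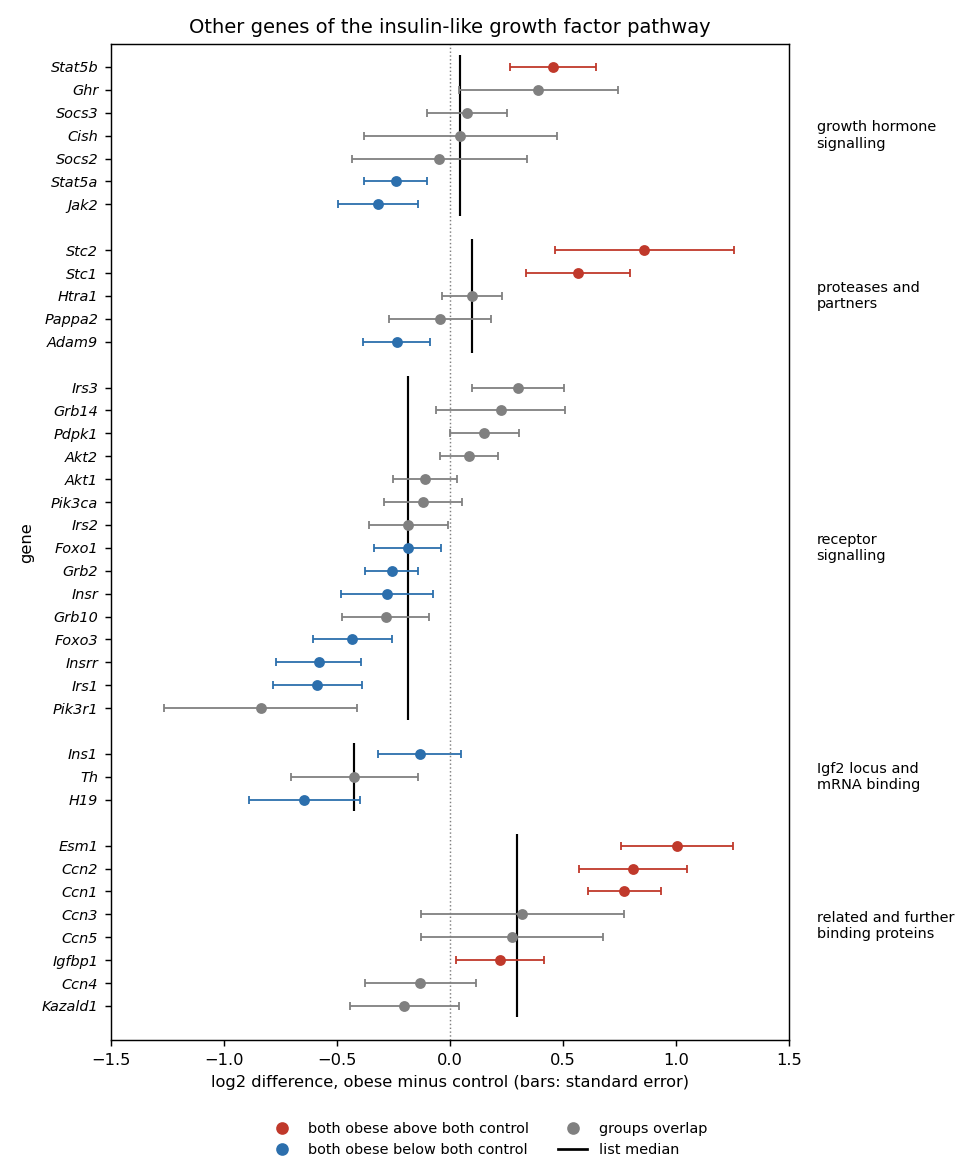
Log2 difference of obese minus control signal (horizontal axis, bars are standard errors) for the tested genes of 5 pathway lists, with red for both obese arrays above both control arrays, blue for the opposite, grey for an overlap and a vertical black line for each list's median. The medians run between -0.42 for the Igf2 locus list and 0.30 for related cysteine-rich proteins.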

How the data were processed

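RNA of visceral adipose tissue was measured on 4 single-colour arrays, 2 obese and 2 control. The deposited values are linear intensities, 1 for each probe set on each array. From these values, the authors had scaled the arrays, since the 2% trimmed mean lay between 150.026 and 150.03 on every array. The sources used here name no scanner, software or background correction. No detection call was used, and the number of arrays limits the precision.

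Leaving out 57 control probe sets, 12783 of 15866 had 1 symbol, 312 several and 2771 none. Of the 12783, 12748 were found by Entrez identifier in RefSeq's GRCr8 table. Values were raised to a floor of 20.8, and probe sets with at least 2 arrays above it were tested, 12929 in all. The test was limma 3.58.1 in R 4.3.3 (lmFit, eBayes with trend, 5.83 degrees of freedom), two-sided, of obese minus control, with p-values adjusted by Benjamini-Hochberg across the 12929. With 2 arrays per group no exact test was run, and the code was tested on simulated data.

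The members, the pathway lists and the marker lists were chosen with earlier results of these data known. Named genes were all members, and of each pathway list the 2 highest, the 2 lowest and any gene with separate groups at least 2-fold apart. Of 54 pathway genes 42 had a probe set, and of 79 markers 65 did. The alternatives were 3 scalings, other floors, a pseudocount of 16, other filters, no variance trend, a replicate block, each array left out and the mean over probe sets.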

Additional observations from a re-analysis of the deposited data

How the results depend on the processing

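No probe set of the family passed an adjusted p of 0.05 under any alternative. Over the 15 alternatives, 144 of 150 values of the main probe sets kept their direction, and the other 6 turned. These were Igf1 without obese replicate 1 (0.044), Igf1r without obese replicate 2 (0.19), Igfbp2 without obese replicate 1 (-0.62) and Igfbp7 with median centring (0.064), without control replicate 2 (0.029) and without obese replicate 2 (0.024). A fit without 1 array assumes that the lone array of its group varies like the other group. Leaving out 1 array gave log2 differences of -0.29 to 0.044 for Igf1, -0.88 to 0.19 for Igf1r, -0.62 to 1.82 for Igfbp2 and -0.061 to 0.029 for Igfbp7. With all arrays kept, the alternatives gave -0.22 to -0.044 for Igf1, -0.34 to -0.14 for Igf1r, 0.17 to 0.43 for Igfbp5 and 0.098 to 0.25 for Igfbp6. Of 21 pathway genes, Grb14 (-0.011) and Ccn4 (0.0094) turned without obese replicate 1. The samples share replicate numbers only, and the deviations of same-numbered arrays from their group means correlated with r = 0.0482 across tested probe sets. The replicate block changed no call. Under it Igfbp4 kept a difference of 0.65, and the adjusted p of the 10 genes lay between 0.526 and 0.981.

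Over all probe sets the number that passed was 3 with a pseudocount of 16, 6 without a filter and 1 without a variance trend, against 0. Probe sets with separate groups at least 2-fold apart numbered 147. A floor at the 10th percentile gave 314, one at the 40th gave 71, and there were 190 to 308 without 1 array. Probe sets of the family with separate groups numbered 9 of 16, where the groups were separate for 40% of all tested probe sets. The count was 7 with median centring and 10 with quantile normalization. Without 1 array it was 9 to 15, where a single array is more easily separate, and the share over all probe sets was not computed there.

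The median of proteases and partners was 0.17 with median centring, 0.041 with quantile normalization, 0.049 with cyclic loess, 0.048 without a filter and 0.025 with all 4 arrays above the floor. That of the Igf2 locus list was -0.34 with cyclic loess, -0.28 with the floor at the 10th percentile, -0.31 with it at the 40th, -0.28 with the pseudocount and -0.28 without a filter. Endothelial markers gave 0.012 with median centring, and liver markers, at 0.22, gave 0.40 with the floor at the 40th percentile, 0.10 without a filter and 0.048 with all 4 arrays above the floor. Growth hormone signalling, at 0.045, gave 0.12 to 0.14 under the 3 other scalings. Without 1 array, list medians ran between -0.23 and 0.15 for growth hormone signalling, 0.031 and 0.17 for proteases and partners, -0.64 and -0.15 for the Igf2 locus and 0.15 and 0.55 for related cysteine-rich proteins. Among the marker lists they ran between -0.31 and 0.062 for fibroblasts, -0.16 and 0.026 for endothelium, -0.14 and 1.02 for smooth muscle, -1.20 and 1.58 for mesothelium and epithelium, -0.72 and -0.38 for macrophages, -1.12 and -0.47 for lymphocytes and -0.0042 and 0.25 for liver. The cause of these changes was not tested.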

Other observations

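Markers of other cells that fat can hold gave these values beside the growth factor genes. Of 9 tested fibroblast and preadipocyte markers 2 were higher and 7 lower in obese tissue, with a median log2 difference of -0.086. The collagen gene Col1a1 had signals of 1903.8 and 2879.3 in obese tissue, against 3490.3 and 3730.8 in control tissue, while Dpt, dermatopontin, had 2267.3 and 2667.6 in obese tissue, against 2002.9 and 1934.6 in control tissue. Both genes were named after their values were seen. Of 8 tested endothelial markers 3 were higher and 5 lower, with a median of -0.067. Of 6 tested lymphocyte markers 6 were lower, with a median of -0.84, where 57.5% of all tested probe sets were lower. The groups were separate for 4 of the 6, where 24.4% of all tested probe sets were separate and lower. Cd8a, among these 4, was above the floor on the control arrays alone, with 53.2 and 21.5. The T cell genes Cd3d and Cd3g overlapped and were high on control replicate 1 alone. Cd3d had 28.8 and 23.3 in obese tissue, against 77.7 and 26.2 in control tissue. Cd3g had 74.3 and 70.0 in obese tissue, against 150.8 and 65.3 in control tissue. Which cells gave these signals was not tested. Of 6 tested liver markers 4 were higher and 2 lower, with a median of 0.22. Among the higher ones, Fgb was above the floor on the obese arrays alone, and Fga lay between 21.3 and 24.8, near the floor. The leptin gene Lep, made by adipocytes, had 539.5 and 1256.4 in obese tissue, against 597.4 and 330.2 in control tissue, so obese replicate 2 had the highest value.

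Ccn3, named after its values were seen, had 861.0 and 362.1 in obese tissue, against 588.7 and 340.3 in control tissue, so replicate 1 was the higher in both groups, as it was for Igfbp6.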
